A study of Mus musculus with 2 samples.

Results

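The genes described here are 9 genes of the pancreatic beta cell lineage: the hormone genes Ins1, Ins2 and Iapp, the transcription factor genes Pdx1, Nkx6-1, Pax4, Mafa and Mnx1, and Ucn3, a peptide gene of mature beta cells. They were taken by name from the gene column of both count files, and all 9 were found among 23284 gene symbols. The data are RNA-seq read counts from 2 libraries, replicates 1 and 2 of a single group. Each was made from GFP-positive cells of the e15.5 pancreas, sorted from mouse embryos that carry the NGN3-EGFP reporter, on a strain background labelled mixed, C57BL6. The whole organ was dissociated before the sort. NGN3 is the protein of Neurog3, which commits epithelial cells to an endocrine fate, so the reporter marks cells in which this gene is or recently was active. The labels do not say how the reporter was built, or whether each library pools several embryos. With 1 group there is no comparison between conditions. Whether separate litters were used is not stated, and the spread between the libraries may be technical.

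In the developing mouse pancreas, cells that switch on Neurog3 leave the duct-like epithelium and become the hormone cells of the islets. Pdx1 and Nkx6-1 are active in pancreatic progenitors and remain active in beta cells, Pax4 favours the beta fate, and Mnx1 is needed for beta cell identity. Insulin transcription follows, driven by factors such as Pdx1, Neurod1 and later Mafa. Mafa and Ucn3 are known to rise as mouse beta cells mature.

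The insulin gene promoter carries short elements on which these factors act: A boxes with a TAAT core bound by homeodomain proteins such as Pdx1, E boxes of the form CATCTG bound by Neurod1 with its partners, and an element bound by Maf proteins such as Mafa. RefSeq windows of 300 bases (build GRCm38.p6, 250 before and 50 after the annotated start) were matched by symbol for 6 of the 9 genes: Ins1, Iapp, Pdx1, Nkx6-1, Mnx1 and Ucn3. The upstream 250 bases of Ins1 and Iapp are printed because these hormone genes have the highest levels of the 6, and because their promoters bring together the factors described below. Capitals mark every TAAT or CATCTG on either strand (ATTA or CAGATG when read on the strand shown).
Ins1, chr19:52264047-52264296, plus strand: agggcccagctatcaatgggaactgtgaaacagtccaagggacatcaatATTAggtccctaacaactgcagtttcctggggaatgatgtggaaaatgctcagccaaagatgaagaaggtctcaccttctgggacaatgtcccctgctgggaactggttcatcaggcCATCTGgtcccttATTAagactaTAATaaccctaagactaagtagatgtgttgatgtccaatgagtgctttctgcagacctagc
Iapp, chr6:142298175-142298424, plus strand: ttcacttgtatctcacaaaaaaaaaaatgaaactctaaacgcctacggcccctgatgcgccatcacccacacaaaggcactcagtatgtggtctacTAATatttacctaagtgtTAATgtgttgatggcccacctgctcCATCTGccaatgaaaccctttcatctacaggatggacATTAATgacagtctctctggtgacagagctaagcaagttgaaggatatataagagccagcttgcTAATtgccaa

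The Maf element was searched as TGCNNNNTCAGC on both strands. In the Ins1 window this form and an E box stood side by side at positions 22 to 48, counting the RefSeq start as 1, shown here because Mafa and Neurod1 were measured. Capitals mark the Maf form and the E box. In rodent insulin genes these elements are known to lie upstream of the start of transcription, so the annotated start may not be the start used in these cells, and upstream and positions here are relative to the annotation only.
Ins1, chr19:52264318-52264344, plus strand: TGCAGCTTCAGCccctctggcCATCTG

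The whole Ins1 window held 3 TAAT matches, 2 CATCTG matches and 1 Maf form. That of Iapp held 5, 1 and 0, that of Ucn3 5, 1 and 0, that of Mnx1 1, 0 and 0, and those of Pdx1 and Nkx6-1 none of the 3 motifs. Of the 5 TAAT matches in Iapp, 2 overlap each other within ATTAAT. Among all 32851 windows of this length in the table, 58% held TAAT on either strand, 17.2% held CATCTG and 1.3% held the Maf form, so TAAT alone is common. A match describes letters and does not show that a factor bound there.

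Insulin was among the most abundant transcripts of the sorted cells. Levels are given in CPM, read counts scaled to the size of each library, in the order replicate 1, replicate 2. Ins1 was at 8377 and 12399 CPM, and per kb of exon it ranked 2nd in both libraries among 22824 symbols with a known length. Ins2, the ancestral insulin gene, was at 5104 and 6461 CPM and ranked 5th and 3rd on the same scale. These ranks rest on the exon lengths used, and the order of Ins1 and Ins2 turned with the lengths of their main transcripts, as given below. Iapp, which encodes the amyloid peptide that beta cells store and release with insulin, was at 2845 and 3124 CPM and ranked 6th and 5th. All 3 hormone genes were higher in replicate 2.

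Together Ins1 and Ins2 took 1.34% of counted reads in replicate 1 and 1.89% in replicate 2, a mean of 1.62% ± 0.39 (SD, n = 2). With Iapp added the share was 1.63% and 2.21%. The 5 transcription factor genes together took 0.0521% and 0.0493%. In bulk samples more cells of a type and more RNA per cell cannot be told apart, so these shares do not give a number of insulin-positive cells.

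Ins1 had more reads than Ins2 in both libraries. In reads the ratio was 1.64 in replicate 1 (exact 95% interval for counting error 1.62 to 1.66) and 1.92 in replicate 2 (1.90 to 1.94). Levels of different genes are comparable only per length, and here the length depends on the gene model. Per kb of exon the ratio was 2.03 and 2.37, with 1062 exon bases for Ins1 and 1312 for Ins2. The Ins2 figure joins the exons of several transcripts, since its main transcript has only 478 bases. Per kb of coding sequence, 324 and 330 bases, the ratio was 1.67 and 1.95. Per kb of the main transcript of each gene, 1062 bases for Ins1 and 478 for Ins2, the ratio turned to 0.739 and 0.864, a scale added after the data were seen. Which insulin gene was higher per length thus depended on the length used, and only the main transcript lengths put Ins2 above Ins1. The Ins1 length rests on its annotated start, which may not be the start used in these cells. The coding sequences were 92.6% identical over 324 aligned bases, and the longest run shared by the main transcripts was 56 bases. The treatment of reads that map to both genes is not given in the sources used here, so part of the ratio may come from how such reads were counted.

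Insulin exceeded Iapp by a wide margin. The summed reads of Ins1 and Ins2 were 4.74 times those of Iapp in replicate 1 and 6.04 times in replicate 2. Per kb of exon these ratios were 3.47 and 4.46, and per kb of coding sequence 4.05 and 5.17. Ins2 alone lay above Iapp per kb of exon by 1.15-fold and 1.32-fold. Its values on that scale (3890 and 4924 CPM per kb) did not overlap those of Iapp (3390 and 3723). The size of this step depended on the length used. It was 1.52-fold and 1.75-fold per kb of coding sequence, and 1.79-fold and 2.07-fold in reads. Per kb of exon and of coding sequence it was the narrowest step among the 3 genes. In reads the step from Ins2 to Ins1 was narrower, at 1.64-fold and 1.92-fold.

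Gcg, the proglucagon gene of alpha cells, was the hormone transcript with the highest level in both libraries, at 14058 and 24069 CPM. It lay above Ins1 per kb of exon, at 12921 and 22123 CPM per kb against 7888 and 11675. Per kb of coding sequence Gcg was at 26034 and 44573 and Ins1 at 25854 and 38268, so the genes were nearly equal in replicate 1. Against Ins1 and Ins2 together the order depended on the length used. Gcg reads were 1.04 times the insulin reads in replicate 1 (exact 95% interval 1.036 to 1.05) and 1.28 times in replicate 2 (1.27 to 1.28). Per kb of exon the ratio was 1.10 and 1.33, but per kb of coding sequence it was 0.63 and 0.771, below 1 in both libraries. Among 8 islet hormones per kb of exon, Ins1 held place 2 in both libraries, Ins2 places 4 and 3, and Iapp place 5 in both. Pyy (peptide YY) held places 3 and 4, and Ghrl (ghrelin), Sst (somatostatin) and Ppy (pancreatic polypeptide) followed. Per kb of coding sequence Ins1 held place 2, Ins2 place 3, Iapp place 4 and Pyy place 5, in both libraries. The place of Pyy against Ins2 and Iapp thus also depended on the length used.

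**Figure D1:**
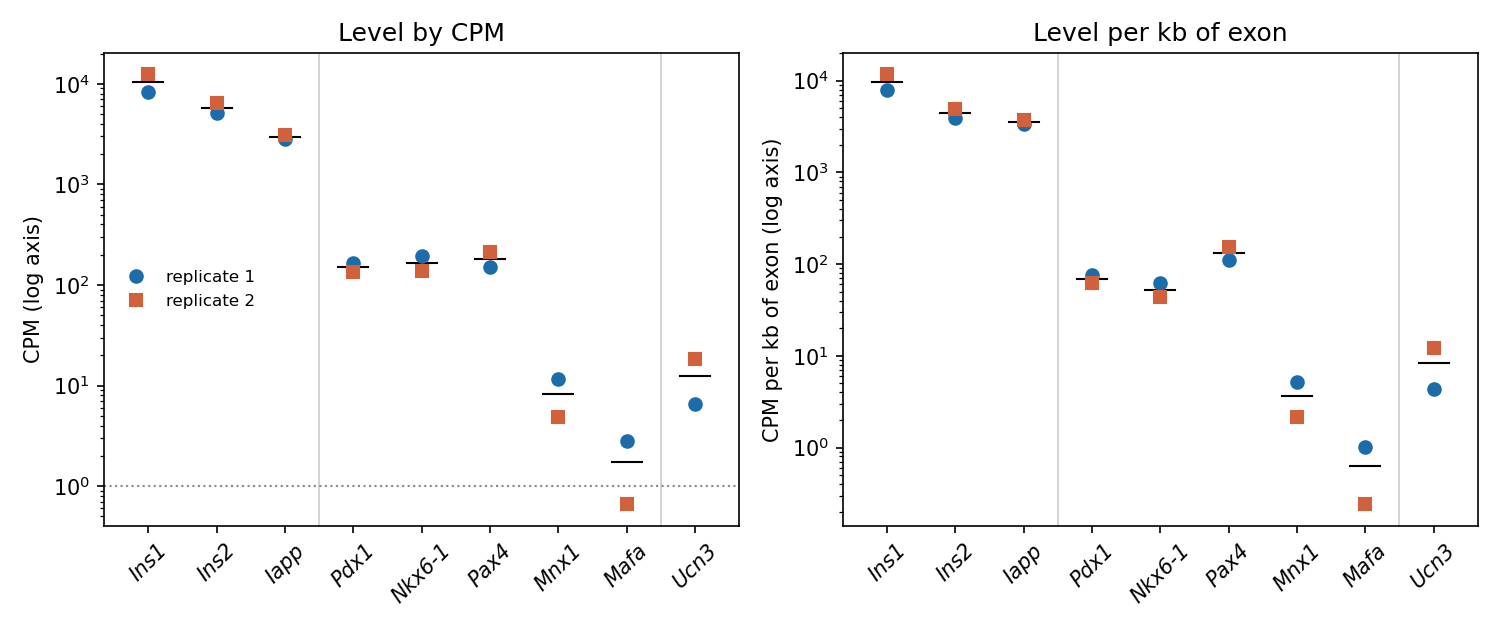
Levels of the 9 genes in CPM (left) and in CPM per kb of exon (right), both on log axes, with a circle for replicate 1, a square for replicate 2 and a bar for their mean. The dotted line marks 1 CPM. The 3 hormone genes lie from 2845 to 12399 CPM, Pdx1, Nkx6-1 and Pax4 between 135 and 211 CPM, and Mnx1, Mafa and Ucn3 below 20 CPM.

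Pdx1, Nkx6-1 and Pax4 formed a middle tier, far below the hormones. Pdx1 was at 164 and 135 CPM. Nkx6-1, a repressor that keeps the beta fate, was at 193 and 138 CPM. Pax4 was at 152 and 211 CPM. Pdx1 and Nkx6-1 were thus higher in replicate 1 and Pax4 in replicate 2.

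Per kb of exon Pax4 was at 111 and 154 CPM per kb, Pdx1 at 75.9 and 62.7 and Nkx6-1 at 61.5 and 44.0. Pax4 stood above Pdx1 by 1.46-fold and 2.46-fold, and the values of the libraries did not overlap. This order did not hold per kb of coding sequence, where Pdx1 was above Pax4 by 1.33-fold in replicate 1 and below it in replicate 2, at a ratio of 0.786. On that scale Pax4 and Nkx6-1 also changed places between the libraries. Pdx1 stayed above Nkx6-1 per kb of exon (1.23-fold and 1.42-fold) and per kb of coding sequence, where the ratio of Nkx6-1 to Pdx1 was 0.917 and 0.795. In reads, which favour the longer Nkx6-1 transcript, Nkx6-1 was the higher, by 1.18-fold (exact 95% interval 1.11 to 1.25) and 1.02-fold (0.954 to 1.09).

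Among 21 transcription factor genes (the 5 described here and 16 other factors of beta cells), Pax4 held places 9 and 7 per kb of exon, Pdx1 11 and 12, Nkx6-1 14 and 14, Mnx1 19 and 20, and Mafa the last place in both libraries. Per kb of coding sequence Pax4 held places 13 and 9, Pdx1 11 and 11, Nkx6-1 12 and 14, and Mnx1 and Mafa the last places. Neurog3, which defines the sort, was in place 1 in both libraries per kb of exon, and in places 1 and 2 per kb of coding sequence. The order of Pax4, Pdx1 and Nkx6-1 within the list therefore moved with the library and the length used, whereas Mnx1 and Mafa were in place 19 or lower throughout.

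Mnx1 and Mafa were scarce. Mnx1 had 146 reads in replicate 1 and 59 in replicate 2, or 11.7 CPM (exact Clopper-Pearson 95% interval 9.91 to 13.8) and 4.88 CPM (3.71 to 6.29). Per kb of exon Nkx6-1 exceeded Mnx1 by 11.8-fold and 20.3-fold. Mafa had 35 reads in replicate 1 and 8 in replicate 2, or 2.81 CPM (1.96 to 3.91) and 0.661 CPM (0.286 to 1.30). Mafa was the only one of the 9 genes below 1 CPM in a library, and its detection rests on replicate 1: 8 of the 9 genes reached 1 CPM in both libraries. Over all symbols 10651 of 23284 did.

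Ucn3, which encodes a peptide that beta cells release to restrain insulin secretion through delta cells, was detected in both libraries. It had 81 reads in replicate 1 and 220 in replicate 2, or 6.51 CPM (exact 95% interval 5.17 to 8.09) and 18.2 CPM (15.9 to 20.8). Its order against Mnx1 depended on the length used. Per kb of exon Ucn3 was below Mnx1 in replicate 1, at a ratio of 0.845, and above it by 5.68-fold in replicate 2. Per kb of coding sequence it was above Mnx1 in both, by 1.37-fold and 9.19-fold. Against Mafa, the other maturity gene, Ucn3 reads were higher by 2.31-fold in replicate 1 (1.54 to 3.55) and 27.5-fold in replicate 2 (13.7 to 64.5). The direction was shared and the size was not.

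The paralogues of these genes, related by descent and often with overlapping roles, were set beside them. Maf, a relative of Mafa, was at 0.643 and 5.87 CPM. Nkx6-1 was the main gene of its family. Nkx6-2 had 1 read in replicate 1 and 0 in replicate 2, and Nkx6-3 was at 8.04 and 0.331 CPM, 24.3-fold higher in replicate 1. For the paired-box genes the order depended on length. Pax6, a factor of islet hormone cells, had 3.83 and 2.97 times the reads of Pax4, but 0.76 and 0.591 times its level per kb of exon and 3.06 and 2.38 times its level per kb of coding sequence.

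Of the peptides related to Iapp, Calcb had no read in either library, and Calca, the calcitonin gene, had 0 reads in replicate 1 and 123 in replicate 2, or 10.2 CPM. Ucn and Ucn2, the urocortins closest to Ucn3, had no read. Counting error alone lets a count of 0 stand for up to 3 reads at one-sided 95% confidence, or 0.241 and 0.248 CPM in these libraries. Of the 9 paralogues 2 reached 1 CPM in both libraries, Pax6 among them. Counted in each library by itself, 3 did in replicate 1 and 4 in replicate 2, these 2 included.

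**Figure D2:**
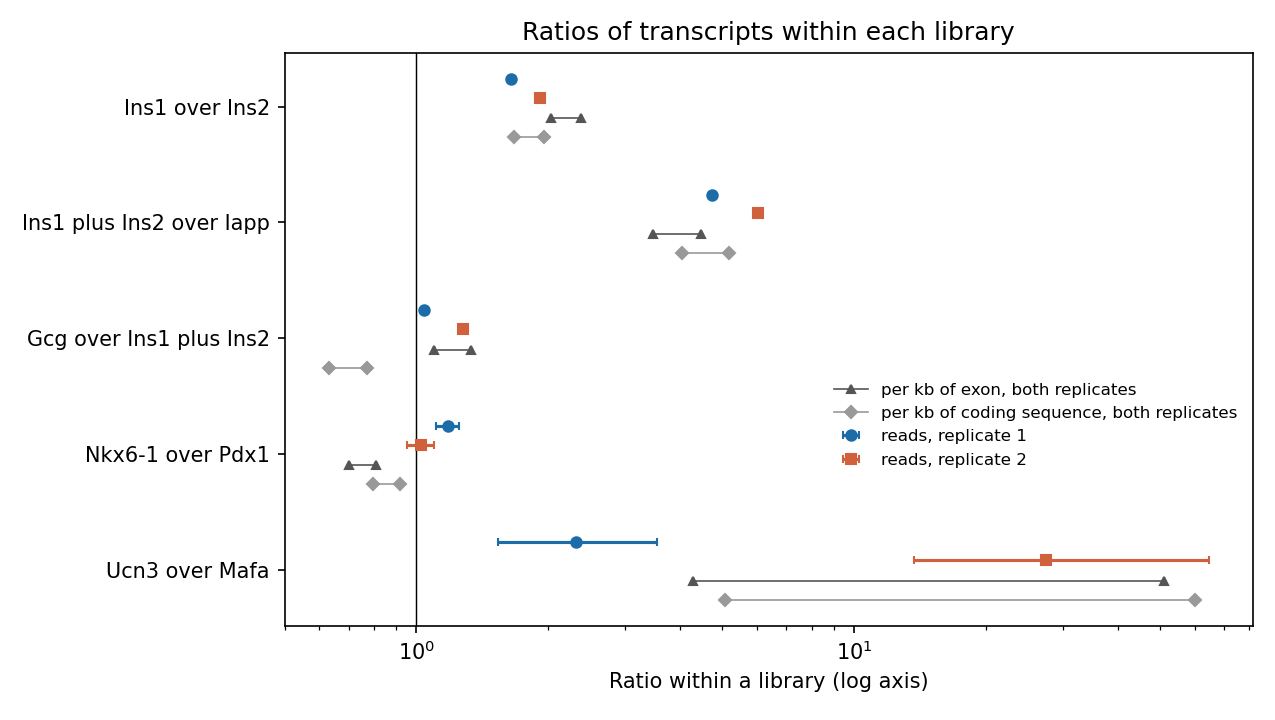
Ratios between transcripts within each library on a log axis. Circles (replicate 1) and squares (replicate 2) give ratios of reads with exact 95% intervals for counting error, triangles the ratios per kb of exon and diamonds those per kb of coding sequence. Gcg over insulin lies on both sides of 1 depending on the length, and Ucn3 over Mafa lies above 1 throughout.

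Other genes listed for the beta cell programme reached 1 CPM in both libraries almost throughout, beside 10651 of all 23284 symbols. The lists were chosen with earlier results of these data known and are not particular to beta cells. Neurog3, Neurod1, Insm1, Chga and Chgb are also on the list of endocrine progenitor markers. All 16 other beta cell transcription factors reached 1 CPM in both libraries, with list medians of 546 and 457 CPM. Among the highest were Insm1 (a zinc finger factor of endocrine differentiation) at 1028 and 872 CPM and Mlxipl (the glucose-responsive factor ChREBP) at 754 and 879 CPM. All 11 genes of insulin processing and the secretory granule did so too, led by Chgb (a granin) at 5381 and 5786 CPM, Cpe (the carboxypeptidase that finishes prohormone cleavage) at 2363 and 3437 CPM and Ptprn2 (a granule membrane protein) at 1047 and 1208 CPM.

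Of 13 genes of glucose sensing and beta cell maturity, 12 reached 1 CPM in both libraries, beside 10651 of all 23284 symbols. Abcc8, the sulfonylurea receptor that gates insulin release, was at 1200 and 1224 CPM, Tmem27 at 212 and 274 CPM and Sytl4, a granule trafficking protein, at 159 and 296 CPM. Prlr, the prolactin receptor, had no read in either library.

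The libraries were compared gene by gene with a two-sided exact binomial test of their reads, Benjamini-Hochberg adjusted over the 13416 genes with at least 10 reads. This compares these libraries and not conditions. By that test all 9 genes differed, 5 toward replicate 2 and 4 toward replicate 1. Since 85.8% of all genes tested also differed, 44.1% toward replicate 2 and 41.7% toward replicate 1, this count says nothing particular about them. Differing and over 2-fold apart were 3 of the 9, Mafa, Mnx1 and Ucn3, against 47.8% of all genes tested. The median log2 ratio of replicate 2 over replicate 1 was 0.14 for the 9 genes and 0.04 for all genes tested, and the median size of the log2 ratio was 0.48 against 0.95. These medians are not matched for level.

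The 6 more abundant genes differed by at most 1.48-fold. Ins1 was 1.48-fold higher in replicate 2 (exact 95% interval for counting error 1.47 to 1.49), Ins2 1.27-fold (1.25 to 1.28) and Iapp 1.10-fold (1.08 to 1.11). The 58 genes above a mean of 1000 CPM had a median size of 0.14 in log2 ratio and none was over 2-fold apart, against log2 ratios of 0.57, 0.34 and 0.14 for Ins1, Ins2 and Iapp. Nkx6-1 was 1.40-fold higher in replicate 1 (1.31 to 1.49; adjusted p = 1.5e-25 by the exact binomial test) and Pdx1 1.21-fold (1.13 to 1.29; adjusted p = 1.29e-08). Pax4 was 1.39-fold higher in replicate 2 (1.31 to 1.48). The log2 ratios of Pdx1, Nkx6-1 and Pax4 were -0.28, -0.48 and 0.48. Among the 2269 genes with a mean of 100 to 1000 CPM, where these 3 lie, the median size was 0.39. Of those genes 12.2% were over 2-fold apart.

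The scarce genes differed most. Mafa was 4.25-fold higher in replicate 1 (1.94 to 10.6; adjusted p = 6.35e-05 by the exact binomial test), Mnx1 2.41-fold higher in replicate 1 (1.77 to 3.31) and Ucn3 2.79-fold higher in replicate 2 (2.16 to 3.65). Among all genes with a mean of 1 to 10 CPM, where Mafa and Mnx1 lie, 74.0% were over 2-fold apart, and among those of 10 to 100 CPM, where Ucn3 lies, 42.9% were. The 2 maturity genes Mafa and Ucn3 thus differed in opposite directions.

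**Figure D3:**
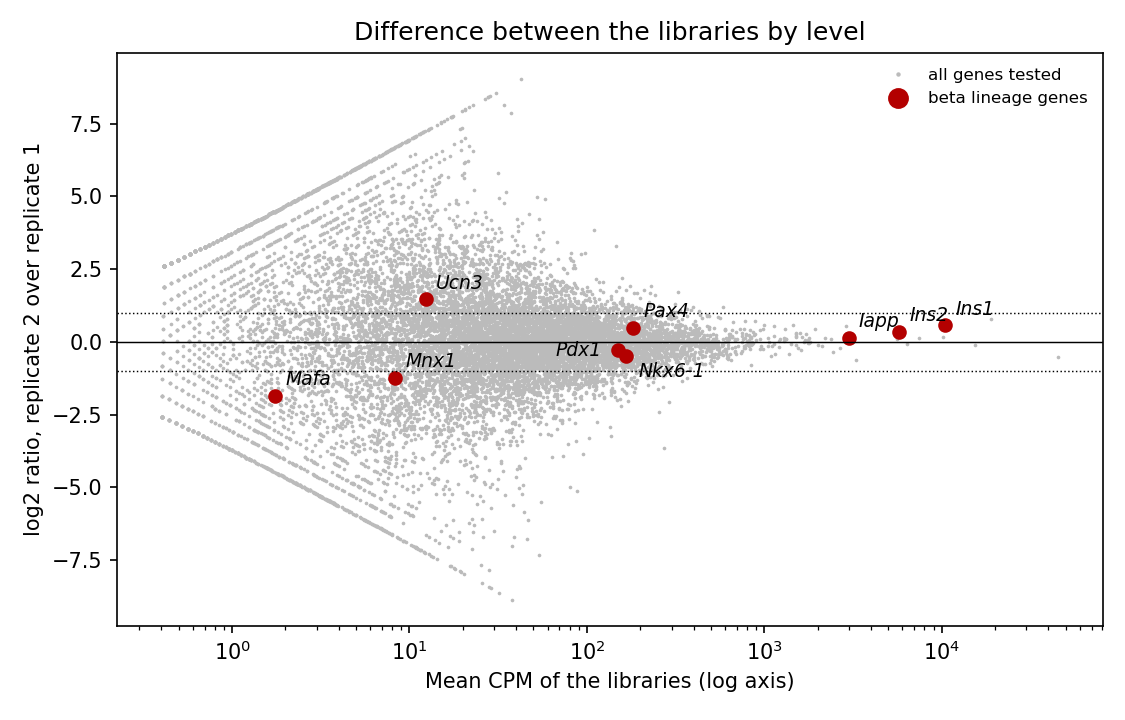
Log2 ratio of replicate 2 over replicate 1 (vertical axis) against the mean CPM (log axis) for all 13416 genes tested in grey and the 9 beta lineage genes in red, with dotted lines at 2-fold. The grey cloud widens toward low levels, and Mafa, Mnx1 and Ucn3 lie outside the dotted lines within it.

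Other genes and lists also differed between the libraries, in both directions. Gcg was 1.71-fold higher in replicate 2, more than either insulin gene. Of 11 processing and granule genes 10 differed by the exact binomial test, all toward replicate 2, beside 85.8% of all genes tested in either direction and 44.1% toward replicate 2. Neurog3 was at 736 and 551 CPM, the same direction as Pdx1 and Nkx6-1. Markers of acinar, duct and mesenchymal cells were mostly higher in replicate 1. The 10 genes of other islet lineages went mostly the other way, with 7 differing toward replicate 2 and 2 toward replicate 1. For 8 acinar genes the summed level was 2045 and 1478 CPM (6 at or above 1 CPM in both). The highest of these was Ctrb1 (chymotrypsinogen) at 1321 and 986 CPM, while the acinar factor Ptf1a had 0 and 3 reads. It was 674 and 619 CPM for 6 duct genes, all of them at or above 1 CPM in both, and 413 and 138 CPM for 7 mesenchymal genes, of which 5 were. Pdx1 and Nkx6-1 are also active in progenitors of the duct-like epithelium. The part of these lists in the levels of the 9 genes was not tested.

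Cells of other origins left few reads. Of 4 endothelial genes none reached 1 CPM in both libraries, with Cdh5 at 194 and 2 reads, Kdr at 1 and 0 reads and a summed level of 15.8 and 0.909 CPM. Of 5 immune genes 2 did, with Laptm5 at 472 and 43 reads, Ptprc at 0 and 1 read and sums of 56.8 and 11.7 CPM. Of 4 neural crest genes 1 did, with Foxd3 without a read and sums of 9.32 and 3.72 CPM. Of 4 erythroid genes none did, with Hba-a1 and Hbb-b1 without a read and sums of 0 and 2.81 CPM, all of it Alas2 (0 and 34 reads). How reads that map to several genes were counted is not stated, so a count of 0 need not mean absence. The 5 endocrine progenitor markers (Neurog3, Neurod1, Insm1, Chga and Chgb) all reached 1 CPM in both, with sums of 8193 and 8312 CPM. Most of these sums was Chgb, at 5381 and 5786 CPM. Chga and Chgb are also on the list of processing and granule genes, so the sums are not particular to progenitors.

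**Figure D4:**
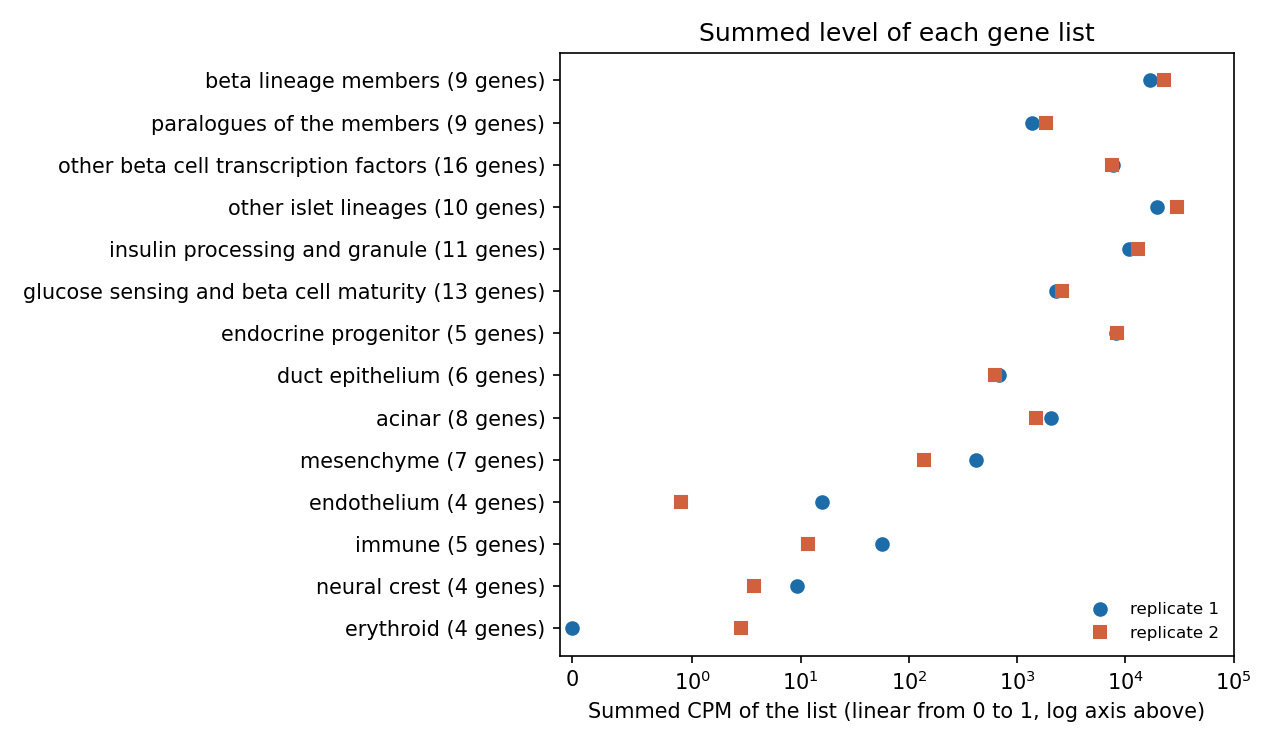
Summed CPM of each gene list in replicate 1 (circles) and replicate 2 (squares), on an axis that is linear up to 1 and logarithmic above. The beta lineage genes sum to 16855 and 22492 CPM, the mesenchymal list to 413 and 138 CPM, and the endothelial, immune, neural crest and erythroid lists lie below 60 CPM.

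For each of the 9 genes the 2 genes with the most similar level in both libraries were found by the Euclidean distance of log2 CPM over the 2 libraries. With 2 libraries this places a gene by its level and its ratio only. Nearest to Ins1 were Peg10 (distance 0.28) and Gnas (0.71), to Ins2 Chgb (0.18) and Lars2 (0.37), and to Iapp Peg3 (0.046) and Hsp90ab1 (0.062). Nearest to Pdx1 were Erlin2 and Inadl, to Nkx6-1 Dpp8 and Dnajb9, and to Pax4 Vps35 and Ddost, at distances from 0.0040 to 0.036. Nearest to Mafa were Btbd11 and Ifit2, to Mnx1 Mns1 and Acads, and to Ucn3 Zfp143 and Aimp2, at distances from 0.038 to 0.14. Ins1 and Ins2 stood farther from their nearest gene than the other 7 did. This distance depends on how many genes lie at a level, and only 58 had a mean above 1000 CPM.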

How the data were processed

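The authors deposited unnormalised counts of reads for each gene symbol, in whole numbers. Per the submitters' processing notes FastQC, cutadapt, TopHat2 2.0.4, Cufflinks 2.0.2, DESeq and build mm9 were used, with no roles or order given. The program that counted reads, its annotation and its strand setting are not stated in the sources used. Replicate 1 held 12495143 counted reads and replicate 2 held 12043734. From these counts, CPM were computed with TMM library sizes (edgeR 4.0.16, R 4.3.3), and reads per kb with exon lengths of the GENCODE M21 basic set (GRCm38, used for lengths only), which matched 98.0% of symbols. No other annotated gene overlapped an exon of the 9 genes. Intervals are exact binomial at 95% and cover counting error only: without molecular identifiers, reads are no independent molecules. Log2 ratios used a prior count of 2. Detection meant at least 1 CPM.

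The exact binomial test (scipy 1.17.1) was run on simulated counts that held counting error only. That run cannot show how the test behaves where libraries differ beyond counting error. No quasi-likelihood test could be fitted to 1 group, and an exact permutation of 2 libraries cannot go below p = 0.5. The 9 genes and all gene lists were chosen with earlier results of these data known. Named were the 9 genes, their paralogues, Gcg, the 3 highest genes of each other list, members of these lists below 1 CPM in both libraries, and the 2 nearest genes of each of the 9. Neurog3, Neurod1, Sst and Ppy are also mentioned, as are markers of other cells. Some genes that meet this rule are not reported here and stay in the counts of their lists. The alternatives were other scalings (DESeq2 1.42.0 size factors, plain totals, 10 top genes or Rn45s left out), filters, detection limits, lengths and each replicate left out. Reads per kb of coding sequence and of main transcript were added after the data were seen.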

Additional observations from a re-analysis of the deposited data

How the results depend on the processing

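No paired analysis was possible because there is 1 group. As mean log2 ratios, Ins1 over Ins2 was 0.83 in reads, 1.13 per kb of exon with the basic and with the full transcript set, and -0.32 per kb of main transcript. Gcg over insulin turned from 0.21 in reads to -0.18 per kb of exon with the full set and -0.52 per kb of coding sequence, these last lengths of main transcript and coding sequence being chosen after seeing the data. Of the 9 genes 9 differed between the libraries, but only Mafa, Mnx1 and Ucn3 (3) did so by over 2-fold as well. Under the other scalings and count filters run, all 44 log2 ratios of the 9 genes kept their direction and stayed past the threshold. With the 10 most abundant genes left out of the totals the level of Iapp was 3425 CPM and that of Pdx1 172 CPM, and the 25 other levels recomputed with another scaling moved by less than the replicate SD. Without replicate 1 the level of Mafa was 0.661 CPM against 1.74 with both, that of Mnx1 4.88 against 8.31 and that of Ucn3 18.2 against 12.3. Without replicate 2 they were 2.81, 11.7 and 6.51 CPM. The number of genes at or above 1 CPM in both libraries was 8 of 9 under every scaling run. In both libraries it was 9 at a limit of 0.5 CPM and 7 at a limit of 5 CPM. At 1 CPM replicate 1 by itself gave 9 and replicate 2 by itself 8. Depth limits Mafa most, with 43 reads in all.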
